A study of Danio rerio with 36 samples.

Results

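The Runx family and its partner Cbfb were followed through whole-genome bisulfite sequencing of zebrafish that carry, or descend from carriers of, a hypomorphic allele of the maintenance DNA methyltransferase gene *dnmt1*. The members are *runx1*, *runx2a*, *runx2b*, *runx3* and *cbfb*, which are 5 of the 20731 genes with at least 1 differentially methylated region (DMR) within 5000 bp of the gene in the deposited tables of G2 and G4 sperm. They were chosen by gene symbol. The locus of a gene runs from the start of its first DMR to the end of its last one, and its level is the mean methylation ratio, in percent, over those CpGs of the locus that were measured in each of the 6 fish compared.

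Whole bodies of 3 dnmt1+/+ and 3 dnmt1m/m fish at 18 dpf (days post fertilization), sperm of 3 dnmt1+/+ and 3 dnmt1m/m males of the G2 generation, and sperm of 3 G4+ and 3 G4* males were profiled, 18 fish in all, each from 2 merged libraries. The dnmt1m/m fish, written dnmt1-/- in the labels, are homozygous for the recessive viable missense allele dnmt1 t25501. The G4 males had a dnmt1m/m grandfather and a heterozygous parent that was crossed to wild-type fish, but are themselves genotypically wild-type for *dnmt1*. G4+ males sired normal offspring when crossed to wild-type fish, whereas G4* males sired offspring with impaired larval T cell development. All fish are labelled as of mixed background, the labels call the 18 dpf samples whole embryo and the G2 sperm Generation 1, and nothing says which males of a group were siblings or which of the study's separate pedigrees they came from. A whole body mixes many cell types, so that its level is an average over cells of unknown proportions.

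Runx proteins bind DNA through the Runt domain, and Cbfb, which does not itself contact DNA, stabilizes that binding. Runx1 is required for the emergence of definitive haematopoietic stem cells and Runx2 for the differentiation of bone-forming cells. Runx3 is known in the mouse for the development of cytotoxic T cells, in which it silences the gene for the co-receptor CD4. Vertebrate sperm DNA is highly methylated at most CpGs, and methylation near transcription start sites is usually low at active genes.

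The member loci differ in length and in how much of them could be measured. In danRer10, the genome build of the deposited files, the *runx1* locus (ENSDARG00000087646) lies on chromosome 1 from 1238640 to 1246117 and holds 3 DMRs of the G2 table and 160 listed CpGs. The *runx2a* locus (ENSDARG00000040261, chromosome 17, 5276386 to 5359495) holds 21 DMRs and 1970 CpGs. The *runx2b* locus (ENSDARG00000059233, chromosome 20, 44091781 to 44198945) holds 26 DMRs and 1779 CpGs. The *runx3* locus (ENSDARG00000052826, chromosome 13, 44953072 to 45066055) holds 34 DMRs of the G2 table, the only member DMR of the G4 table, and 2087 CpGs. The *cbfb* locus (ENSDARG00000040917, chromosome 18, 23000474 to 23081282) holds 13 DMRs and 1472 CpGs. The *runx1* locus thus covers only 7.48 kb, and its level rests on 22, 58 and 66 CpGs in whole body, G2 sperm and G4 sperm, whereas that of *runx3* rests on 559, 878 and 1153.

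A CpG has no value in a fish where it was covered by too few reads or lay at a variant, and the read depth behind each value is unknown here. Over all 23946533 listed CpGs, between 41.1% and 51.9% had a value in a whole-body fish, 49.9% to 65.7% in a G2 sperm sample and 59.1% to 66.3% in a G4 sperm sample. Within a comparison, at most 1.70% of the 1 kb windows had the same level in any pair of fish, so that no sample repeated another. Males 1, 2 and 3 of the G2 mutants had median locus levels of 62.4%, 73.5% and 71.8%, and the wild-type males of 96.6%, 96.5% and 96.5%. By this measure the whole-body wild-type fish lay between 86.3% and 86.6%, the whole-body mutants between 56.9% and 57.1%, and all G4 males between 96.3% and 96.4%.

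In whole body, all 5 member loci were lower in dnmt1m/m than in dnmt1+/+ fish, as were 99.9% of the 18123 gene loci tested (limma, FDR under 5%). *runx1* was at 82.9%, 80.8% and 81.3% in wild-type and at 61.7%, 51.5% and 58.0% in mutant fish. *runx2a* was at 84.5%, 86.2% and 85.5% in wild-type and at 57.8%, 59.3% and 58.6% in mutant fish. *runx2b* was at 81.9%, 82.1% and 82.2% in wild-type and at 52.5%, 51.5% and 53.3% in mutant fish. In none of these genes did the groups overlap, and *runx1*, the locus with the fewest CpGs, had the widest spread between mutant fish. The share of all loci without overlap is not given here. With 99.9% of loci called lower, the separation is not read as a trait of the members. *runx3* had the lowest wild-type level of the members, at 76.6%, 77.7% and 76.3%, and was at 50.1%, 51.5% and 51.1% in the mutants. *cbfb* was at 80.3%, 80.0% and 80.7% in wild-type and at 51.7%, 50.7% and 50.5% in mutant fish. The member differences ran from -24.6 percentage points at *runx1* to -29.6 at *runx2b*, around the median over all loci of -28.4, and the adjusted p-values of limma ran from 9.42e-08 to 2.94e-05.

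**Figure D1:**
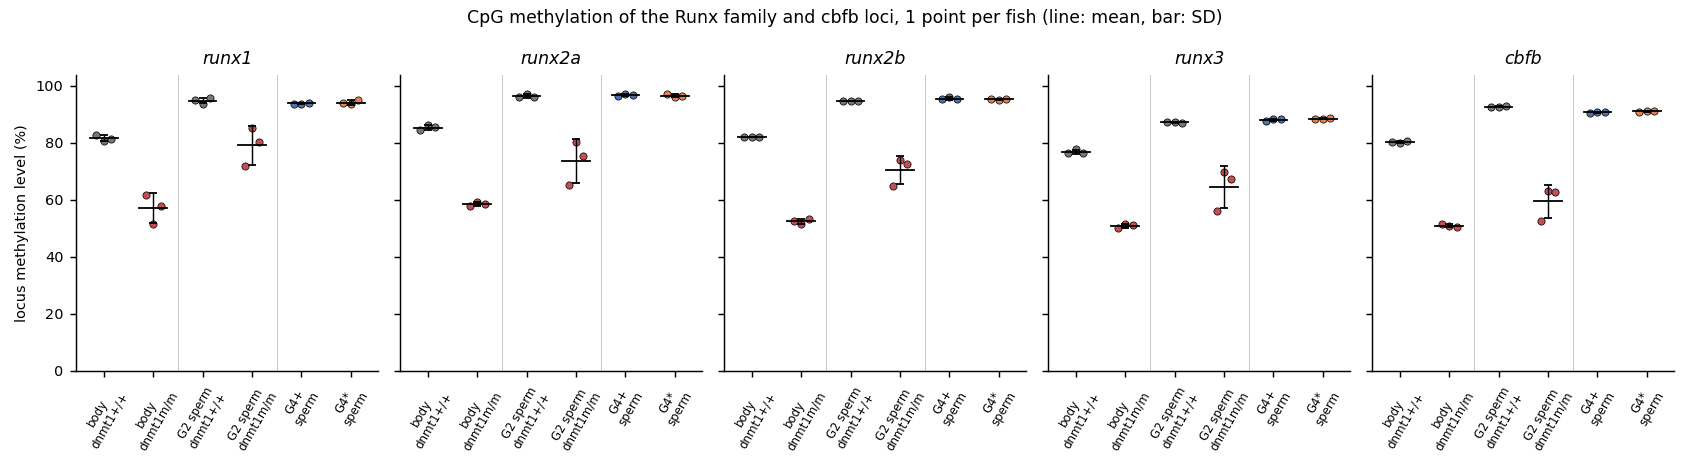
Methylation level (percent) of the locus of each member in the 6 groups, with 1 point per fish, a line at the mean and a bar of 1 SD (n = 3). The mutant fish lie below the wild-type fish in whole body and in G2 sperm at every locus, and the G4+ and G4* males lie within 1 percentage point of each other in group mean.

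In G2 sperm, the 5 loci were again lower in the mutants, against 99.8% of the 20721 loci tested; since nearly all loci are drawn around DMRs that were found in these same males, this direction is partly set by how loci were chosen. *runx1* was at 95.1%, 93.8% and 95.6% in wild-type and at 71.9%, 85.1% and 80.2% in mutant males. *runx2a* was at 96.0%, 97.3% and 96.0% in wild-type and at 65.2%, 80.4% and 75.6% in mutant males. *runx2b* was at 94.8%, 94.7% and 94.7% in wild-type and at 64.8%, 74.1% and 72.6% in mutant males. At these 3 loci every mutant male lay below every wild-type male, and the mutant males differed more among themselves than the wild-type males did. As in whole body, the share of all loci without overlap is not given, and the separation is not read as a trait of the members. *runx3* was at 87.5%, 87.2% and 87.2% in wild-type and at 56.0%, 69.8% and 67.5% in mutant males. *cbfb* was at 92.6%, 92.6% and 92.8% in wild-type and at 52.7%, 63.0% and 62.6% in mutant males. The groups were apart at these 2 loci as well, and the adjusted p-values of limma for the 5 members ran from 6.36e-20 to 1.12e-08. These p-values rest on a variance common to all loci, and not on the spread of the males at each locus. The losses were thus unequal in size: that of *runx1*, -15.8 percentage points, was smaller than the loss of 93.2% of all loci, and that of *cbfb*, -33.2, was matched or exceeded by 12.3% of them. The other 3 lay between -22.7 and -24.2, close to the median over all loci of -25.9.

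Taken per male as the distance to the mean of the other 4 members, *cbfb* was at -0.724, -0.678 and -0.517 percentage points in the wild-type and at -11.7, -14.3 and -11.4 in the mutant males. For *runx1* this distance was 2.38, 0.863 and 2.91 in the wild-type and 12.2, 13.3 and 10.7 in the mutant males. In both genes the groups were apart, with an exact permutation p of 0.1, which is the smallest that 3 males against 3 can give. For *runx2a*, *runx2b* and *runx3* the groups overlapped and p of this test ran from 0.3 to 0.7. The loci are drawn around DMRs found in these same males, so that these distances are a description and not an independent test. The mutant males kept 1 order at all 5 loci, with male 1 lowest and male 2 highest, an order found at 78.2% of all loci.

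Whole body and sperm were set side by side over the CpGs that have a value in all 18 fish, of which *runx1* has only 13 and *runx3* 423. At *runx3*, wild-type fish had 75.9% ± 0.801 in whole body and 86.7% ± 0.202 in sperm, and mutant fish 50.3% ± 0.263 and 63.7% ± 7.10 (SD, n = 3). G4+ males had 86.5% ± 0.327 and G4* males 86.3% ± 0.0218 over the same CpGs. At *cbfb*, where mutant whole body and sperm were at 50.9% ± 1.01 and 58.3% ± 6.96, the G4+ and G4* males were at 93.5% ± 0.979 and 94.3% ± 0.667, below the 96.1% ± 0.230 of wild-type G2 sperm. For *runx2a*, wild-type G2, G4+ and G4* males had means of 95.9%, 96.1% and 96.0%, and for *runx2b* of 96.7%, 96.3% and 96.0%. The generations were processed as separate tables, and no test was run between them.

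In G4 sperm, no member locus was called. Over all loci, 0.226% were called lower and 0.0855% higher in G4*. *runx1* was at 93.8%, 93.7% and 94.1% in G4+ and at 94.0%, 93.5% and 95.0% in G4* males. *runx2a* was at 96.4%, 97.0% and 96.8% in G4+ and at 97.1%, 96.0% and 96.3% in G4* males. *runx2b* was at 95.3%, 96.0% and 95.4% in G4+ and at 95.5%, 95.0% and 95.3% in G4* males. The groups overlapped at all 3 of these loci, and their means differed by 0.32, -0.26 and -0.31 percentage points.

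*runx3* as a whole locus was at 87.7%, 88.4% and 88.2% in G4+ and at 88.4%, 88.3% and 88.6% in G4* males, again with overlap. *cbfb* was at 90.5%, 90.8% and 90.9% in G4+ and at 90.9%, 91.2% and 91.3% in G4* males, or 0.433 points more (adjusted p of limma 0.951). The *cbfb* groups were just apart, with an exact permutation p of 0.1, as was the case for 5.24% of all loci with G4* higher and 6.29% with it lower. The adjusted p-values of the members in limma ran from 0.951 to 0.996.

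Of the other genes of the pathway, chosen as a list of 35 partners, co-repressors, blood and T cell genes and skeletal genes, 26 had a measured locus. All 26 were called lower in the mutants in whole body and in G2 sperm, as were nearly all loci, with median differences of -30.6 and -24.8 percentage points. The co-receptor gene *cd8a* had the largest loss in both, at -40.2 in whole body and -48.4 in G2 sperm, over only 15 and 17 CpGs. It was followed in whole body by *il7r*, the receptor chain for interleukin-7, at -38.5 over 17 CpGs. In G2 sperm it was followed by *gata1a*, the regulator of red cell genes, at -33.4 over 39 CpGs. The smallest losses in whole body were those of the hedgehog gene *ihhb* (-19.9, 137 CpGs) and the Groucho co-repressor gene *tle3a* (-21.8, 287 CpGs). In G2 sperm they were those of *zbtb7b* (-13.8, 171 CpGs), which in the mouse directs helper T cells, and the recombinase gene *rag2* (-15.8, 21 CpGs).

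In G4 sperm, 0 of the 26 were called by limma, 3 had an unadjusted p under 0.05, against 6.7% of all loci, and the median difference was -0.27 percentage points against -0.0014 over all loci. The lowest differences were those of *cd8a*, from 93.2% ± 1.35 to 88.9% ± 1.96 over 15 CpGs (adjusted p = 0.522), and *ihhb*, from 74.6% ± 5.36 to 70.8% ± 2.66 (adjusted p = 0.923; SD, n = 3). The highest were those of *cd4-1*, at 1.38 percentage points, and of *spi1b*, a regulator of myeloid cells, at 1.11. The *cd8a* groups did not overlap, at 92.2%, 92.6% and 94.7% in G4+ and 88.9%, 87.0% and 90.9% in G4* males, while those of the other 3 did. In the rest of the list, the groups were also apart at *gata3*, *ihha* and *myb*, with G4* lower, and at *tle3b*, with G4* higher. Over all loci, the groups were apart in 6.29% with G4* lower and in 5.24% with G4* higher. Besides *cd8a*, the genes with an unadjusted p under 0.05 in limma were *ihha*, at -3.25, and *myb*, at -0.75 percentage points. They, *gata3* and *tle3b* were named after their values were seen.

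The same loci were then read in 1 kb windows holding 5 or more comparable CpGs. The window grid does not depend on where DMRs were drawn, but the span of each locus does. The member counts in G2 sperm are thus partly set by how loci were chosen. In whole body, 117 of 144 member windows were called lower in the mutants (limma, FDR under 5% and at least 20 percentage points), against 81.7% of all 403058 windows. In G2 sperm, 152 of 220 were called lower, against 71.4% of 624580. No member window was called higher in either, against 0.0062% and 0.0179% of all windows. In G2 sperm, 0 of 4 windows of *runx1*, 32 of 49 of *runx2a*, 45 of 61 of *runx2b*, 45 of 75 of *runx3* and 30 of 31 of *cbfb* were called lower. The largest loss of any member window in G2 sperm was at the start of the *runx3* locus, at -67.1 percentage points, and the next were at -54.2 in *cbfb* and -53.3 in *runx3*. The window at -67.1 holds the member DMR of the G4 table, whose start is also the start of the locus.

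A few windows carried little methylation even in wild-type sperm. Of the 220 member windows in G2 sperm, 8 were under 20% in wild-type males: 5 in *runx3*, 2 in *runx2b*, 1 in *cbfb* and none in *runx1* and *runx2a*. Over all windows the share was 3.68%. These 8 windows hold 22 to 60 listed CpGs, with a median of 35, against 20 in the other member windows. In *runx3* they lie between 45017000 and 45022999, well inside the locus, with 1.58%, 1.53% and 1.78% in wild-type and 0.590%, 0.773% and 1.17% in mutant G2 sperm over 77 CpGs. The same windows had 1.62%, 1.42% and 1.23% in G4+ and 1.48%, 1.11% and 1.47% in G4* males, and between 1.62% and 3.11% in the whole-body fish of either genotype. This stretch was thus low in every fish of the series. Its last window was the highest of the 5, between 10.6% and 11.5% in wild-type G2, 2.78% and 7.84% in mutant G2, and 16.7% and 20.2% in G4 males. In the other 4 windows no G2 or G4 male was above 1.82%, and the mutants were not lower throughout.

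The *cbfb* window, from 23005000 to 23005999, was between 0% and 3.84% in all 18 fish. The pair of *runx2b* windows, from 44157000 to 44158999, was between 0.58% and 2.94% in G2 sperm and between 5.27% and 14.0% in G4 sperm, over partly different CpGs. Within the G4 generation its values were 6.08%, 9.87% and 5.30% in G4+ and 14.0%, 5.27% and 9.62% in G4* males, which overlap.

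**Figure D2:**
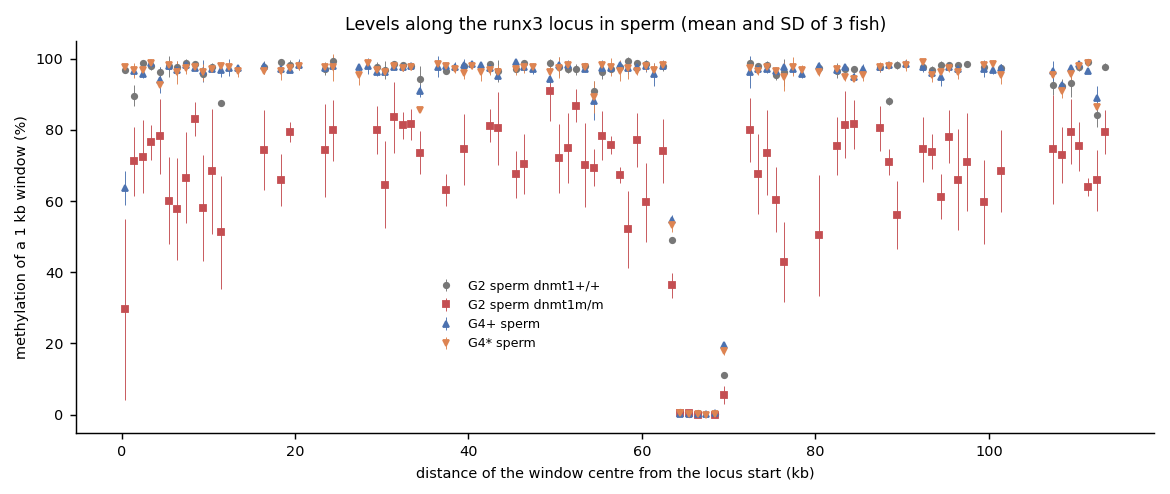
Methylation (percent, mean and SD of 3 males) of the 1 kb windows along the runx3 locus in the 4 sperm groups, by distance of the window centre from the start of the locus (kb). The first window holds the interval of the G4 table, where G2 mutant and G4+ males lie below wild-type and G4* males, and the windows about 65 to 70 kb into the locus are low in all 4 groups.

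In G4 sperm, 7 of the 9 windows spanned by *runx1*, 60 of 84 of *runx2a*, 73 of 108 of *runx2b*, 88 of 114 of *runx3* and 46 of 82 of *cbfb* could be tested. The others held too few comparable CpGs to be judged. Of the 274 member windows tested, 1 was called, higher in G4*, against 0.00734% of all 763308 windows called higher and 0.0149% called lower. This window holds the *runx3* interval of the G4 table, which was found as a DMR in these same males, so that its G4 difference is a description of what was selected. Without any 1 of the 6 males, 0 windows were called in the members and 0 in all. Of the remaining member windows, none was called, 13 had an unadjusted p under 0.05 in limma (4.76%, against 5.59% of all windows), and none differed by 10 percentage points or more, as 1.3% of all windows did. Their differences lay between -5.38 and 7.10 percentage points. The groups were apart with G4* lower in 18 of the 274 member windows and with G4* higher in 10, the called window included, against 5.35% and 4.97% of all windows.

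**Figure D3:**
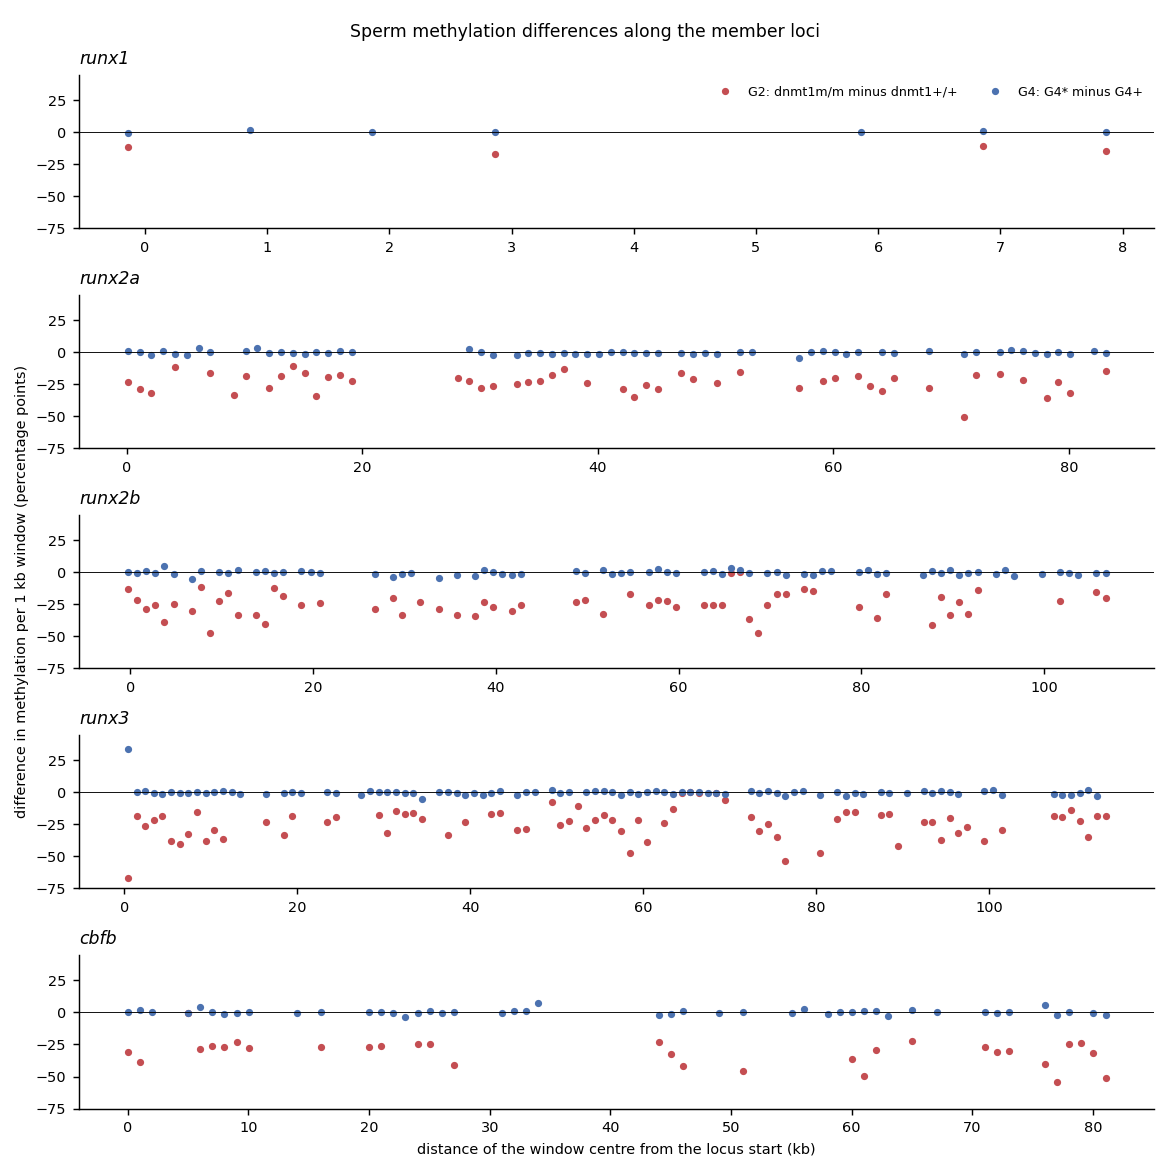
Difference in methylation (percentage points) of each 1 kb window along the 5 member loci, by distance of the window centre from the locus start (kb), between mutant and wild-type G2 sperm and between G4* and G4+ sperm. The G2 differences are mostly between -10 and -50 percentage points, and the G4 differences lie close to 0 in all loci except in the first runx3 window, at 34.0.

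The DMRs of the G2 table offer a further reading, since they were found in G2 males and not in the G4 males. All 97 of them at the 5 members had at least 3 CpGs with a value in the 6 G4 males. Their G4 differences ran from -3.69 to 3.73 percentage points with a median of -0.23, and for the 34 in *runx3* from -2.63 to 2.10 with a median of 0.031. In G2 sperm the differences of these 34 had run from -45.5 to -11.5. None of the *runx3* DMRs of G2 sperm thus differed between the G4 groups by as much as 3 percentage points. The G4 groups were apart with G4* lower at 10 of the 97 DMRs and with G4* higher at 1, in *runx3* at 2 and 1. The share over all DMRs of the G2 table is not given here. The paper reports that nearly all DMRs lower in G2 mutant sperm did not differ between G4+ and G4* sperm, so the small differences are not read as a trait of *runx3*. The G4 differences were likewise small at the DMRs of *runx1* (-0.41 to 0.96), *runx2a* (-2.23 to 2.53), *runx2b* (-3.69 to 1.73) and *cbfb* (-2.11 to 3.73).

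The *runx3* interval of the G4 table lies on chromosome 13 from 44953072 to 44953566, in danRer10, 2296 bp from the gene in the deposited annotation and thus outside it. It is 494 bp long and holds 21 listed CpGs, or 42.5 per kb, compared with 18.5 per kb over the whole locus. None of the 34 G2 DMRs of *runx3* overlaps it; the nearest starts at 44954059. Over the 18 CpGs measured in every G4 male, the interval was at 59.5%, 62.5% and 68.8% in G4+ and at 96.5%, 98.0% and 98.4% in G4* males. The mean difference was 34.0 percentage points. At single CpGs, G4* was above G4+ with no overlap at 18 of 18, with differences from 18.9 to 49.8 and a median of 33.1. The G4+ means of single CpGs ran from 47.8% to 79.8% and those of G4* from 91.3% to 100%. The interval was found as a DMR in these same males, and its CpGs were all read in the same fish. The count of 18 is thus a description of what was selected and not an independent test. The share of all CpGs without overlap is not given here.

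The bounds of this interval were set on G4 males alone. The paper, however, picked out *runx3* among G4 DMRs whose levels disagreed with those of G2 mutant sperm. The G2 values and ranks below are thus a description, and the test on them is not independent of how *runx3* came to be named. In G2 sperm, 8 CpGs of the interval were measured in each of the 6 males. The wild-type males were at 96.4%, 96.8% and 97.0%, and the mutant males at 9.28%, 58.2% and 21.3%. The groups were far apart, and mutant male 2, which had the highest median locus level of the 3 mutants, was also the highest here. The difference was -67.1 percentage points (limma over 238 intervals of the G4 table, adjusted p = 0.0023), against a median of -30.0 for those intervals and with 59.7% of them called lower. It was the 7th largest loss among the 238. Of all 624580 windows, 337 lost as much as the window that holds the interval, or 0.0540%. Taken per male as the interval minus the rest of the *runx3* locus, the wild-type males were at 8.99, 9.65 and 9.92 percentage points and the mutant males at -47.2, -11.7 and -46.6 (exact permutation p = 0.1, the smallest possible).

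The same 8 CpGs were also measured in every G4 male, so that both generations could be set side by side on them, with no test between them. Over these CpGs the G4* males were at 95.9%, 96.1% and 97.6% and the G4+ males at 52.0%, 61.2% and 63.9%. The G4* males thus lay around the wild-type G2 values of 96.4% to 97.0%. The G4+ males lay below them and overlapped with the mutant G2 males, of which male 2, at 58.2%, was above G4+ male 1.

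In whole body the interval was poorly covered, and only 1 of its CpGs had a value in all 6 fish. Over every CpG with a value in a fish, the wild-type fish were at 5.19%, 4.43% and 38.5% from 3, 5 and 5 CpGs, and the mutant fish at 43.9%, 3.42% and 33.5% from 16, 15 and 16 CpGs. The fish differed widely within both groups, the groups overlapped, and the difference of 10.9 percentage points did not pass the test (limma over 237 intervals, adjusted p = 0.544; 63.3% of them were called lower). Over the single shared CpG the difference was -6.57 (adjusted p = 0.520), so that no direction can be given. The wild-type whole-body values lay far below the wild-type sperm values of 95.4% to 98.2% over every CpG with a value. Among the 329561 windows tested in both and at 90% or more in wild-type sperm, 202, or 0.0613%, were under 20% in wild-type whole body; the *runx3* window had too few CpGs in whole body to be among those tested.

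No difference like that of the interval was seen at the places next to it where CpGs could be compared. The nearest comparable CpGs outside it lie 412 bp before its start and 494 bp after its end, and they differed by 0.77 and 1.07 percentage points. Within 3000 bp on either side, 32 outside CpGs could be compared, 6 before and 26 after. Of them, 1 was higher in G4* without overlap, at -2255 bp from the start. It was at 91.7%, 94.7% and 91.7% in G4+ and at 100% in each G4* male. Another, at -2109 bp, went the other way, from 42.9%, 38.9% and 56.2% in G4+ to 0% in each G4* male. The share of all single CpGs without overlap is not given here, so that neither count is read as a result. The median difference of the 32 was 0.66 percentage points.

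**Figure D4:**
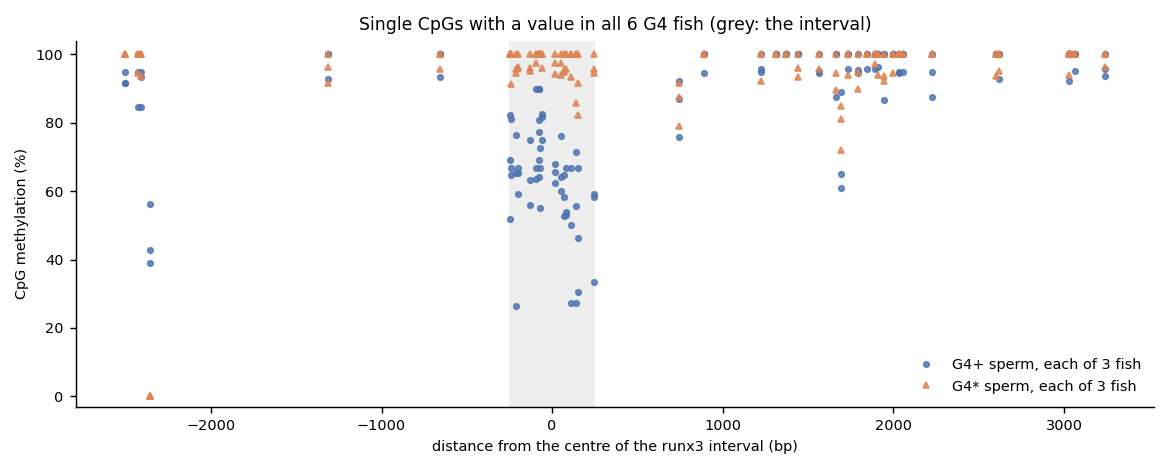
Methylation (percent) of single CpGs in each of the 3 G4+ and 3 G4* males by distance from the centre of the runx3 interval (bp), for CpGs measured in all 6. Inside the shaded interval, which was chosen on these same males, the G4* males lie above the G4+ males at all 18 CpGs. Outside it, 1 CpG at -2356 bp from the centre is at 0% in all G4* males.

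In bins of 500 bp counted outward to 10000 bp, 7 bins before and 15 after the interval held at least 3 comparable CpGs, and none had the groups apart by 10 percentage points with G4* higher, which 0.275% of all 1270662 such bins did. The bin differences ran from -7.36 to 4.85, with a median of 0.16. The bins that touch the interval could not be judged on either side: the first usable bin began 2000 bp before its start, with -6.66 percentage points, and 1000 bp after its end, with 0.67. The share of all bins with the groups apart by any amount is not given here. Of the usable bins, 1 had the groups apart, the one that began 2000 bp before, with G4* lower. It rests on 4 CpGs, among them the one named above that was at 0% in each G4* male. Whether that CpG lies at a sequence variant was not tested. No comparable CpG lies in the 412 bp before and the 494 bp after the interval, so that an edge within them could not be placed.

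Without the interval, the *runx3* locus was at 88.2%, 88.8% and 88.5% in G4+ and at 88.3%, 88.1% and 88.4% in G4* males. To ask whether the rest of *runx3* moved differently from its paralogs, it was taken per male minus the mean of *runx1*, *runx2a* and *runx2b*. The values were -6.98, -6.79 and -6.92 percentage points in G4+ and -7.26, -6.72 and -7.11 in G4* males. The groups overlapped and differed by -0.13 (exact permutation p = 0.5). With the interval left in, the G4 difference was 0.40. That value is given with no test, since the interval was chosen on these same males, and it differs from the other only in the 18 CpGs of the interval, of 1153 in the locus.

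At larger distance the windows around the interval were mostly alike in both G4 groups. Within 50 kb of it, 68 further windows had a median difference of -0.069 percentage points. None had G4* lower by 10 or more with the groups apart, against 0.337% of all windows. In 1 window, or 1.47%, G4* was higher by 10 or more with the groups apart, against 0.182% of all windows. That window, from 44925000 to 44925999, 28 kb before the interval and outside the *runx3* locus, was named after its values were seen. It was at 58.5%, 42.4% and 52.3% in G4+ and at 73.0%, 74.3% and 76.6% in G4* males, and was not called (limma, adjusted p = 0.702). In G2 sperm, over 3 CpGs, the wild-type males were at 61.4%, 66.7% and 66.7% there and the mutant males at 24.2%, 39.9% and 38.9%.

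Within 2 Mb of the *runx3* interval, the G4 table lists 5 of its 243 intervals, *runx3* included, of which 4 are higher and 1 is lower in G4*. Genome-wide 79 of the 243 are higher. The lower one, annotated to *glo1*, lies 0.279 Mb before it and went from 57.8%, 51.9% and 52.1% in G4+ to 9.93% ± 2.35 (SD, n = 3) in G4* males. The others lie 0.847 Mb (*si:ch211-62a1.4*), 1.20 Mb (*fgfr2*, the gene of a fibroblast growth factor receptor) and 1.58 Mb (*CU695232.1*) after it. They had 60.4% ± 7.81, 55.7% ± 1.59 and 44.2% ± 7.46 in G4+ and 96.8% ± 1.17, 97.7% ± 1.39 and 92.8% ± 2.33 in G4* males (SD, n = 3). Of all 2367 windows within 2 Mb, 0.845% had G4* higher by at least 10 percentage points with the groups apart and 0.887% had it lower, against 0.182% and 0.337% of all windows. These intervals were chosen on the same G4 males, and no test is given.

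The intervals of the G4 table whose levels over the 18 fish lay closest to those of *runx3* were then taken by the smallest mean absolute difference over the fish, among 236 intervals with values in all of them. They were the *fgfr2* interval (chromosome 13, 46149273 to 46150025), at 13.1 percentage points, the *phc2b* interval (chromosome 6, 48138546 to 48139521), at 13.5, and the *CU695232.1* interval (chromosome 13, 46528434 to 46528737), at 13.6. So 2 of the 3 lie on the chromosome of *runx3*, which holds 7 of the 243 intervals of the G4 table, *runx3* included. The 3 scores are close together, and the wild-type whole-body values of *runx3* rest on few CpGs. The ranking is thus uncertain, and no regional pattern is read from it. Each had wild-type whole-body means below wild-type sperm, mutant G2 males below wild-type males, G4+ males below wild-type G2 males and G4* males at 90.1% or more. Since the 3 intervals were picked for their likeness to *runx3* over these same fish, this shared pattern is largely set by the choice. At *phc2b*, a Polycomb gene, the G4+ males were at 74.8%, 74.4% and 71.4% and the G4* males at 97.4%, 97.6% and 97.6%.

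**Figure D5:**
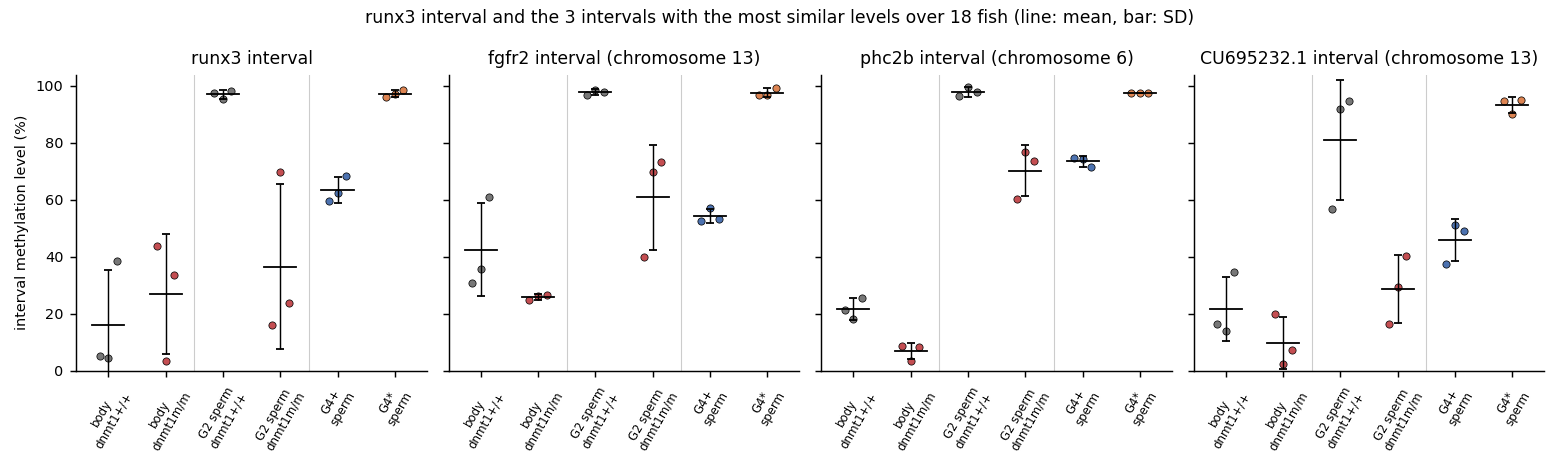
Methylation (percent) of the runx3 interval and of the 3 intervals of the G4 table with the most similar levels over the 18 fish, over every CpG with a value in a fish, with 1 point per fish, a line at the mean and a bar of 1 SD (n = 3). In all 4, wild-type whole body lies below wild-type sperm and the 3 G4* males lie at 90.1% or more, above the G4+ males.

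CpGs measured in the 3 males of one G4 group but in none of the other were counted as a measure of where the groups differ in coverage or in variants, which the deposited ratios do not separate. The *runx3* locus had 47 of them among 2087 CpGs, or 225 per 10000, against 75.0 per 10000 over all CpGs. Of the 47, 46 lacked a value in the G4* males and 1 in the G4+ males. Over all CpGs there were 179589 such positions, of which 76721 lacked a value in the G4+ males and the rest in the G4* males. *runx1* had 0 of 160, and *runx2a*, *runx2b* and *cbfb* had 7, 7 and 3, or 35.5, 39.3 and 20.4 per 10000. The nearest to the interval lies 10833 bp after its end, and 0 of the 150 CpGs within 5 kb of the interval were of this kind. They were gathered in a few places, with 12 of them between 22.6 and 25.1 kb and 16 between 105.9 and 106.0 kb after the interval. Within 500 kb of the interval there were 364 per 10000, or 693 in all, of which 123 lacked a value in G4+. What part such positions have in the interval difference was not tested.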

How the data were processed

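DNA of 18 fish (3 in each of 6 groups) was bisulfite-sequenced from TruSeq and EpiGnome libraries. The authors trimmed reads with cutadapt 1.9.1, mapped them with BWA 0.7.12 to bisulfite-converted danRer10 (GRCz10), removed duplicates with Picard 1.136, merged both libraries of a fish, and deposited per CpG the methylation ratio as a fraction from 0 to 1, set to missing at low coverage or at a variant. From the deposited DMR tables only positions, gene names and distances to the gene were used; their other columns, the authors' own comparisons (differences and p-values), were left out. Tables evaluating the G2 DMRs in G4 sperm and a table of mean ratios at other named loci were not used here.

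Column names were matched to groups, and no per-sample column was left unmapped. Ratios were averaged per fish over the CpGs measured in each of the 6 fish compared, for gene loci (at least 10 CpGs), 1 kb windows (at least 5) and intervals. limma 3.58.1 (R 4.3.3) was fitted on the logit (offset 0.01) of these means over all features, with Benjamini-Hochberg adjustment, and was tested on simulated data. In G2 sperm limma gave all loci 1 common variance. For single values the exact permutation test was two-sided. Depth per CpG is unknown, so no counting interval is given. With 3 fish a group, p-values measure the spread between these fish. Those of limma for G2 loci are an exception, since they rest on the common variance and not on the spread at each locus. Alternatives changed 1 choice at a time. The members, the list of 35 pathway genes and the thresholds were chosen with earlier results of these data known. The text names all members; of the list, the 2 largest and 2 smallest differences in each comparison and any gene called in G4; and the 3 intervals closest to *runx3* over the 18 fish. Promoters were not analysed here.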

Additional observations from a re-analysis of the deposited data

How the results depend on the processing

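In whole body and G2 sperm, the 69 and 70 recomputed member locus differences kept their direction and their call; in G4 sperm none of 70 was called, and 4 turned: *runx1* to -0.97 and *runx2b* to 0.92 percentage points over every CpG with a value, *runx3* to -0.20 from DMRs inside the gene only, and *runx1* to -0.11 without G4* male 3 (-0.11 to 0.64 over the males left out). The *runx3* interval in whole body turned to 10.9 over every CpG and ranged from -12.1 to 3.89 (without wild-type fish 3) when single fish were left out. *runx3* against its paralogs went to 0.40 with the interval, 0.044 against *runx2a*, 0.088 against *runx2b* and -0.53 against *runx1* alone, and ranged from -0.29 to -0.016 without single males. The extent was 0 bp under every alternative run, which says little, since the bins that touch the interval held too few comparable CpGs.

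The count of called windows rests on the filter on CpGs. With at least 10 CpGs it was 83308 in all and 42 in the members in whole body, and 150237 and 62 in G2 sperm. This filter also removes windows from the test. The numbers of windows left are not given here, so the lower counts do not show a lower share of calls. Called loci in G4 (62) were 20 with at least 20 percentage points, 38 over every CpG, 38 inside genes only, and 12 to 27 without single males. Called windows in G4 (170, of which 1 in a member) were 108 and 0 in windows of 500 bp, 0 and 0 with an offset of 0.001, 0 and 0 without any 1 of the males, and 315 in all on untransformed ratios. Without single males, the G2 counts ran from 368023 to 478621 in all and from 110 to 167 in the members.

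Males share only a replicate number: correlations of same-numbered deviations were -0.013 to 0.140, and not every male correlated best with its own number. With the replicate number as a block, G4 loci called fell to 0 and G4 windows to 0 in all and 0 in the members. No call of a member locus or of the interval changed in whole body or G2 sperm, where the block left 117 and 152 member windows called and moved the counts over all features by much less than 1.5 times.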
